A study of Mus musculus with 2 samples.

Results

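Slit2, Slit3, Robo1, Robo2, Sema3a, Sema3c, Sema3d, Nrp1 and Nrp2 are 9 of the 56694 genes counted in single cells of newborn mouse back skin epidermis. They encode secreted guidance cues and the receptors that read them. The genes were chosen by symbol from a list that was drawn up with measured values of these same libraries in view, so their levels are given as descriptions and no test was made on them. The study asked what Gli2, a transcription factor of the Hedgehog pathway, does in skin epithelium, and the single-cell data hold 1 Control and 1 Gli2_EKO library, both from epidermal preparations of C57BL/6N mice at postnatal day 2. In Gli2_EKO mice K14Cre deletes the floxed Gli2 alleles (K14Cre;Gli2 fl/fl), and this Cre acts in keratinocytes, so dermal cells are not its target. The Control library is labelled WT, while the study's methods describe controls as floxed littermates without Cre. How many mice each library pools, and of which sex, was not stated. Dermis was digested away before the epidermis was dissociated, and the dermal cells described here are those that remained.

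Slit proteins are secreted ligands of the Robo receptors and were found as repellents of growing axons. Class 3 semaphorins are secreted as well, and most act through neuropilins, which bind the ligand, and plexins, which pass the signal into the cell. Neuropilins also bind VEGF family growth factors. In skin these families are known mainly from the routing of sensory nerves and blood vessels, and the ligands and receptors can be made by keratinocytes, fibroblasts, endothelial cells or nerves.

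The Control library held 6326 barcodes with 71021773 unique molecular identifiers (UMIs, counted transcript molecules) and the Gli2_EKO library 4296 barcodes with 48866478 UMIs, with 0 barcodes in common. Quality limits and doublet removal left 4456 Control and 3093 Gli2_EKO cells, of which 3320 and 2307 were keratinocytes. The 9 genes and all other listed guidance genes were kept out of the genes used for clustering. The keratinocytes fell into 11 classes and the other cells into 9. Of these, 8 and 7 took a name from marker genes and are written with "-like", and every listed marker was above 10 CPM (a gene's UMIs scaled to 1000000 UMIs) in the class named for it. The others are called by their 2 leading genes. A level above 10 CPM does not set a class apart, and some lists summed higher elsewhere. With both libraries pooled, the Lower ORS markers summed to 1831 CPM in their class and 2858 CPM in the Nlgn1/Adamts19 cluster. The Matrix markers summed to 1214 CPM in their class and 2447 CPM in the S100a3/Krt35 cluster. Interfollicular epidermis is abbreviated IFE, outer root sheath ORS and inner root sheath IRS. Each CPM value pools all cells of a class in a library, before scaling. Intervals in parentheses are exact 95% intervals (Poisson for CPM, conditional binomial for log2 ratios of Gli2_EKO over Control, Clopper-Pearson for shares) and reflect the counting of UMIs alone. Each genotype has 1 library, so replicate spread is unknown for every difference below. Gli2 itself was counted at 83.0 CPM in Control and 84.6 CPM in Gli2_EKO keratinocytes. UMIs come from near polyA sites and the deleted exons were not stated, so this count does not check the labels. IFE basal-like cells made up 11.9% of Control and 26.0% of Gli2_EKO keratinocytes and Matrix-like cells 15.9% and 8.54%, so a ratio over all keratinocytes mixes level and makeup. All 9 genes span over 100 kb, and genes of that length took 12.8% of keratinocyte UMIs in Control and 10.5% in Gli2_EKO. The part of this shift in the ratios below was not tested.

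The plot of UMI shares shows that the 9 genes divide between epithelium and dermis. Keratinocytes held 80.9% of the Nrp2 UMIs in the Control library and 64.8% in the Gli2_EKO library, 77.0% and 70.1% of those of Robo1, 74.6% and 86.1% of those of Sema3c, and 70.1% and 62.3% of those of Sema3d. The remaining 5 genes were counted mostly in other cells. Keratinocytes held 5.56% and 5.12% of the Slit2 UMIs, and between 20.7% and 36.3% of those of Slit3, Robo2, Sema3a and Nrp1 in either library.

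**Figure D1:**
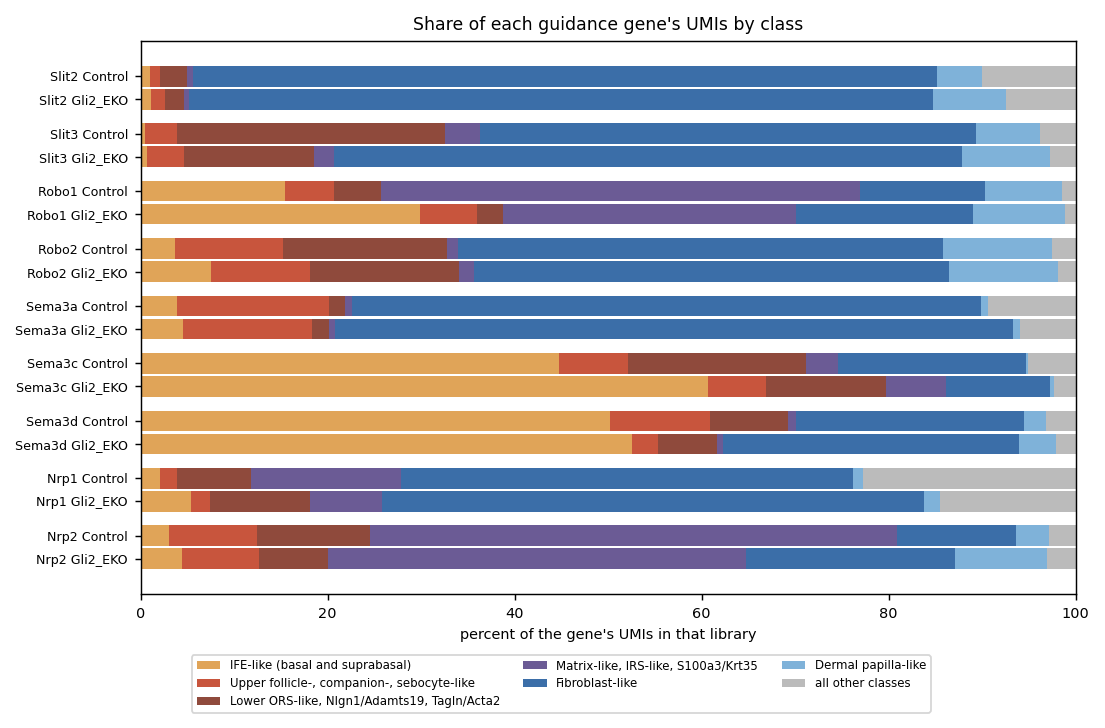
Stacked bars give the percent of each gene's UMIs that lay in groups of classes, with a Control and a Gli2_EKO bar per gene. Fibroblast-like cells held 79.6% of the Control and 79.7% of the Gli2_EKO Slit2 UMIs, Matrix-like cells 37.1% and 28.3% of those of Nrp2, and IFE basal-like cells 40.9% and 53.5% of those of Sema3c.

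**Figure D2:**
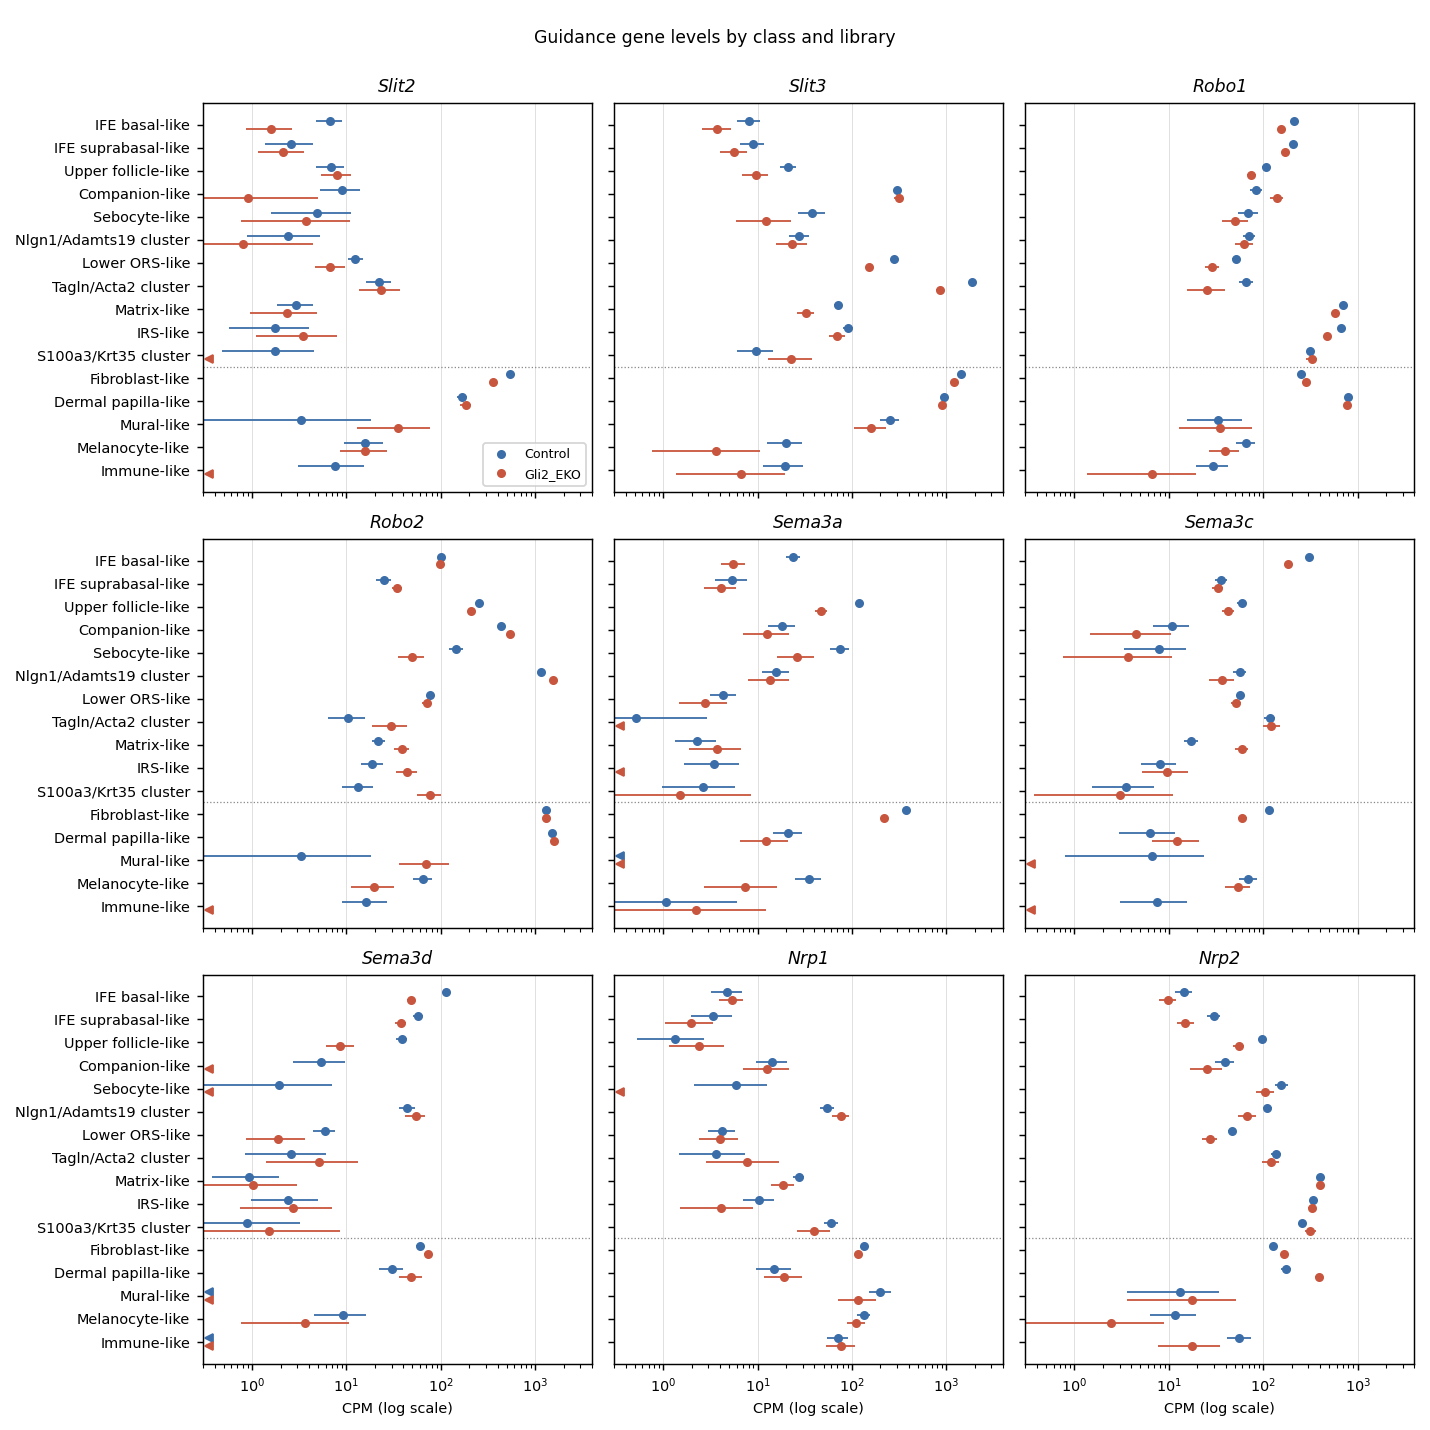
Points give the CPM of each gene (log axis) in the classes that had at least 20 cells in each library, with exact 95% Poisson intervals, and triangles at the left edge mark 0 UMIs. Classes above the dotted line are keratinocytes. Robo2 in the Control library spans from 3.28 CPM in Mural-like cells to 1504 CPM in Dermal papilla-like cells.

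Slit2, a secreted Robo ligand, lies at chr5:48140480-48465075 of GRCm39 on the plus strand. It was a dermal gene in both libraries. Fibroblast-like cells had 539.6 CPM (524 to 556) in Control and 358 CPM (342 to 374) in Gli2_EKO, a log2 ratio of -0.59 (-0.67 to -0.52), or -0.44 with the clusters of the class weighted to their Control shares. All 5 Fibroblast-like clusters were lower in Gli2_EKO, and the cluster led by Tnmd and Acan, genes of tendon and cartilage matrix, stood highest at 966 and 771 CPM. Dermal papilla-like cells, the signalling centre below the follicle, had 168 CPM (148 to 189) and 183 CPM (159 to 211). Higher levels were counted in a pair of small unnamed clusters, at 2542 and 3160.2 CPM in the Sema3a/Adamts6 cluster (25 and 11 cells) and 1536 and 1002 CPM in the Gm20754/Lrrc7 cluster (14 and 4 cells). Keratinocyte classes ranged from 0 to 23.1 CPM. The level that free dermal RNA could carry into a class was computed from its collagen counts, and it came to 8.08 CPM against 8.87 CPM observed in Companion-like cells of the Control library. The Tagln/Acta2 cluster stood at 22.2 and 23.1 CPM against carried levels of 2.27 and 1.53 CPM, and Lower ORS-like cells at 12.4 and 6.75 CPM against 2.17 and 1.39 CPM. After thinning each cell to 2000 UMIs, 4.46% of Control Tagln/Acta2 cells had a Slit2 UMI, against 2.17% (0.264 to 7.63) of Immune-like cells, which should lack it. Those shares have overlapping intervals (2.06 to 8.29 for the Tagln/Acta2 cells).

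Slit3, also a secreted Robo ligand, lies at chr11:35011789-35602786 on the plus strand. It was shared between dermal cells and several classes of follicle keratinocytes. Among keratinocytes it peaked in the Tagln/Acta2 cluster, cells of the follicle with contractile genes, at 1848 CPM (1788 to 1909.6) in Control and 846 CPM (783 to 913) in Gli2_EKO, a log2 ratio of -1.13 (-1.25 to -1.01). The Control level there was above that of Fibroblast-like cells, at 1417 CPM (1391 to 1443), while the Gli2_EKO level was below their 1214 CPM (1185 to 1243). After thinning, 81.2% of Control and 51.7% of Gli2_EKO cells of the cluster had a Slit3 UMI, against 1.09% and 0% of Immune-like cells. Companion-like cells, named from Krt6a, Krt79, Cst6, Krt16 and Gata6, came next at 300.5 CPM (277 to 325) and 311 CPM (279 to 346). The study used K75 as its companion layer marker. The marker list that holds Krt75 also holds Foxq1, Krt90, Krt23, Aldh1a3, Gpnmb and Kitl. With both libraries pooled, it summed to 102 CPM in Companion-like cells and 3297 CPM in the S100a3/Krt35 cluster. It also summed to 1515 CPM in Melanocyte-like cells, so the sum does not give the level of Krt75 alone. Which follicle layer the Companion-like class is was not tested. Lower ORS-like cells had 281 CPM (270.0 to 292) and 151 CPM (139.8 to 162). These neighbours overlapped within counting error in Control and not in Gli2_EKO. Both Lower ORS-like clusters were lower in Gli2_EKO, at 237 and 115 CPM in the cluster led by Spon1 and 321 and 188 CPM in the cluster led by histone gene H2ac8. Matrix-like cells, the dividing cells of the hair bulb, had 70.6 and 32.4 CPM and IRS-like cells 91.2 and 69.3 CPM. IFE basal-like cells stood at 8.05 and 3.73 CPM, against carried levels of 5.17 and 4.04 CPM. Dermal papilla-like cells had 932 and 898 CPM, a log2 ratio of -0.05 (-0.17 to 0.06). Their clusters moved apart, with 921 and 1033 CPM in the cluster led by Prokr2 and 939 and 698 CPM in the cluster led by Dcc.

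Both Slit genes carry a microRNA in an intron. Mir218-1 lies inside Slit2 at chr5:48381284-48381393 and Mir218-2 inside Slit3 at chr11:35507643-35507752 of GRCm39, each on the strand of its host and overlapping 0 exons of it. The RefSeq mature sequences are shown because both hairpins give the same 5′ product, so that any count of it could not be assigned to either host. Capitals mark the seed, bases 2 to 8.
miR-218-5p (from both): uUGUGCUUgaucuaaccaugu
miR-218-1-3p: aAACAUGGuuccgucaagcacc
miR-218-2-3p: cAUGGUUCugucaagcaccgcg
The 3′ products differ in their seeds. The microRNAs themselves were not measured by this assay.

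Robo1, a transmembrane receptor for Slits, lies at chr16:72105194-72844378 on the plus strand. Among classes with at least 20 cells in each library its highest levels were in the hair-forming compartment and the papilla beneath it. The smaller Sema3a/Adamts6 cluster had 424 CPM (316 to 556) in Control and 1053 CPM (756 to 1429) in Gli2_EKO. Dermal papilla-like cells had 796 CPM (753 to 841) in Control and 774 CPM (722 to 829) in Gli2_EKO. Genes over 100 kb took 21.7% and 22.1% of the UMIs of this class, against 16.7% and 15.3% in Fibroblast-like cells. Its median UMIs per cell were 7872 and 6574, against 12126 and 10954. The part of these differences in its Robo1 and Robo2 levels was not tested. Matrix-like cells had 709 CPM (690.4 to 729) and 575 CPM (548 to 603), a log2 ratio of -0.30 (-0.38 to -0.22). IRS-like cells had 662 CPM (633 to 692) and 475 CPM (441 to 512). Matrix-like and IRS-like cells overlapped within counting error in Control and not in Gli2_EKO. The S100a3/Krt35 cluster followed at 313 and 328 CPM. With both libraries pooled, hair shaft markers summed to 4716 CPM there, the list that holds Krt75 to 3297 CPM and Matrix markers to 2447 CPM. Between Control and Gli2_EKO the hair shaft sum went from 3082 to 10338 CPM and that of the Krt75 list from 3538 to 2466 CPM. The part of this shift in the ratios of this cluster was not tested. IFE basal-like cells had 211 and 156 CPM and IFE suprabasal-like cells 209 and 169 CPM, with overlapping intervals in each library. The lowest keratinocyte levels were in Lower ORS-like cells, at 51.6 and 28.5 CPM, and the Tagln/Acta2 cluster, at 66.0 and 25.6 CPM. After thinning, 61.4% of Control and 53.6% of Gli2_EKO Matrix-like cells had a Robo1 UMI, against 3.26% and 2.78% of Immune-like cells.

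The Matrix-like class holds a small cluster that bears on Robo1. It was led by Sox5, Bach2, Edar and Robo1, with 107 Control and 29 Gli2_EKO cells, a median of 5804 UMIs, 9.03% mitochondrial UMIs and 27.0% of UMIs in genes over 100 kb, against 16459 UMIs, 2.36% and 9.68% in the larger Matrix-like cluster. Robo1 stood at 2372 CPM in Control and 2374 CPM in Gli2_EKO in the small cluster, and at 543 and 476 CPM in the larger. Without the small cluster the log2 ratio in Matrix-like cells was -0.19. The part of RNA quality in these high levels was not tested.

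Robo2, the second Slit receptor, lies at chr16:73688727-75244270 on the minus strand, on the same chromosome as Robo1. Dermal papilla-like cells had 1504 CPM (1445 to 1565) in Control and 1571 CPM (1496 to 1648) in Gli2_EKO, and Fibroblast-like cells 1302 CPM (1278 to 1327) and 1308 CPM (1278 to 1339). In keratinocytes it peaked in the Nlgn1/Adamts19 cluster, at 1164 CPM (1122 to 1207) and 1534 CPM (1466 to 1604), a log2 ratio of 0.40 (0.31 to 0.48). This cluster had 270 Control and 142 Gli2_EKO cells and was left unnamed. Of the keratinocyte classes it had the highest sum of stem-like ORS markers (Lhx2, Nfatc1, Tbx1, Npnt and Postn), at 2244 CPM with both libraries pooled. Robo2 was detected in 67.7% of its thinned Control cells and 72.3% of its thinned Gli2_EKO cells, against 2.17% and 0% of Immune-like cells. Companion-like cells followed at 437 CPM (409 to 467) and 544 CPM (501 to 589), and Upper follicle-like cells at 251 CPM (237 to 264) and 209 CPM (196 to 224). Sebocyte-like cells had 145 and 49.3 CPM, from 45 and 26 cells. IFE basal-like cells had 100.2 and 96.8 CPM and Lower ORS-like cells 76.7 and 70.9 CPM. The other 5 keratinocyte classes had at most 24.8 CPM in Control, and each was higher in Gli2_EKO. IFE suprabasal-like cells had 24.8 and 34.3 CPM, Matrix-like cells had 21.8 and 38.8 CPM, IRS-like cells 18.7 and 43.9 CPM, the S100a3/Krt35 cluster 13.2 and 75.9 CPM and the Tagln/Acta2 cluster 10.3 and 29.5 CPM. The carried level was at most 6.13 CPM in these 5 classes in either library. It was computed from collagen counts, so free RNA from other keratinocytes is not covered by it. Both Dermal papilla-like clusters were lower in Gli2_EKO, at 2209.6 and 2015 CPM in the cluster led by Prokr2 and 1086 and 909.8 CPM in the cluster led by Dcc, while the class as a whole was not, because the Prokr2 cluster, with 82 of 194 Control and 97 of 156 Gli2_EKO cells, took a larger share of it. With the clusters weighted to their Control shares the log2 ratio was -0.16, against 0.06 (-0.03 to 0.15) unweighted.

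The plot of Robo1 against Robo2 shows that the keratinocyte classes with the highest Robo2 levels (the Nlgn1/Adamts19 cluster, Companion-like and Upper follicle-like cells) had 63.0 to 139 CPM of Robo1, and that the classes with the highest Robo1 levels (Matrix-like and IRS-like) had 18.7 to 43.9 CPM of Robo2. Across the 15 keratinocyte clusters, with both libraries pooled, Pearson's r of the log2 levels was -0.29, given as a description because the clusters share libraries. Dermal papilla-like cells had both receptors. After thinning to 5000 UMIs, 89.0% of Control and 90.2% of Gli2_EKO cells there had UMIs of both, against 89.2% and 90.2% if detection of the genes were independent. In IFE basal-like cells the share with both was 16.3% and 16.7%, against 14.8% and 15.4%.

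**Figure D3:**
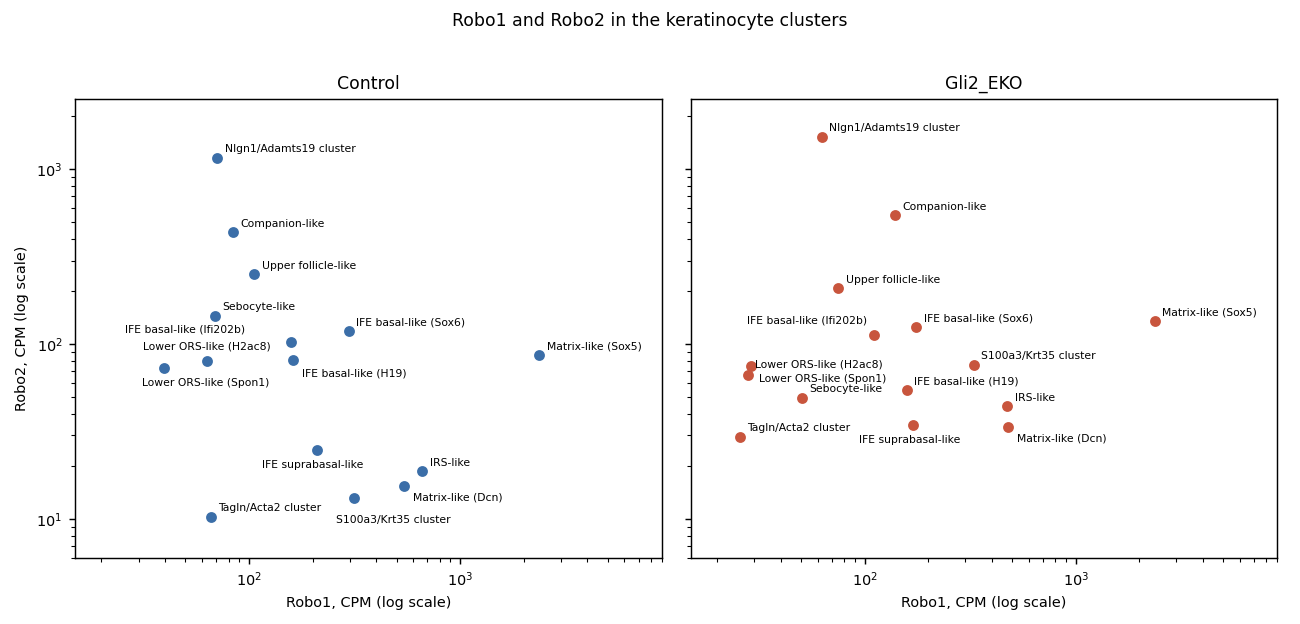
Each point is a keratinocyte cluster, with its Robo1 CPM on the x axis and its Robo2 CPM on the y axis (both log scales), for Control at left and Gli2_EKO at right; where a class has several clusters the leading gene is added. The Nlgn1/Adamts19 cluster sits at top left, with 1164 and 1534 CPM of Robo2, and the small Matrix-like cluster led by Sox5 at far right, with 2372 and 2374 CPM of Robo1.

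Sema3a, a secreted semaphorin that repels sensory axons, lies at chr5:13175288-13653578 on the plus strand. Fibroblast-like cells had 376 CPM (363 to 389.5) in Control and 219 CPM (207 to 231) in Gli2_EKO, a log2 ratio of -0.78 (-0.88 to -0.69). All 5 Fibroblast-like clusters were lower in Gli2_EKO, from 830.4 and 671 CPM in the cluster led by Tnmd to 115 and 27.1 CPM in the cluster led by Coch. Among keratinocytes it was highest in Upper follicle-like cells, at 119 CPM (109.7 to 128) and 47.0 CPM (40.7 to 54.0), a log2 ratio of -1.34 (-1.58 to -1.10). Sebocyte-like cells followed at 73.9 and 25.9 CPM. IFE basal-like cells had 23.7 and 5.54 CPM, and most of this came from the cluster led by Sox6, at 45.4 and 8.54 CPM. The 5 classes Lower ORS-like, Tagln/Acta2, Matrix-like, IRS-like and S100a3/Krt35 stayed at or below 4.33 CPM in both libraries. Dermal papilla-like cells had 21.2 and 12.3 CPM. A cluster of 25 Control and 11 Gli2_EKO cells was led by Sema3a itself and Adamts6, at 3023 and 2081 CPM. It had a median of 3730.0 UMIs, 7.04% mitochondrial UMIs and 33.7% of UMIs in genes over 100 kb. This cluster also had the highest Slit2, Slit3 and Robo2 levels of all classes. The part of RNA quality in these levels was not tested.

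Sema3c, a secreted semaphorin that can attract as well as repel, lies at chr5:17779219-17935648 on the plus strand. Among classes with at least 20 cells in each library it was highest in IFE basal-like cells, the dividing layer of the epidermis, at 303 CPM (289.9 to 317) in Control and 182 CPM (173 to 191) in Gli2_EKO, a log2 ratio of -0.74 (-0.83 to -0.64). All 3 IFE basal-like clusters were lower in Gli2_EKO, at 303 and 167 CPM, 231 and 145 CPM, and 418 and 278 CPM in the clusters led by Sox6, H19 and Ifi202b. After thinning, 38.7% of Control and 26.5% of Gli2_EKO IFE basal-like cells had a Sema3c UMI, against 1.09% and 0% of Immune-like cells. IFE suprabasal-like cells, the layer above, had 35.8 and 33.2 CPM. The Tagln/Acta2 cluster came second among keratinocytes at 117 and 122 CPM, followed by Upper follicle-like cells (59.3 and 42.7 CPM), Lower ORS-like cells (57.2 and 51.7 CPM) and the Nlgn1/Adamts19 cluster (56.3 and 36.7 CPM), whose intervals overlapped in Control. Matrix-like cells went the other way, with 17.3 CPM (14.5 to 20.6) in Control and 59.0 CPM (50.6 to 68.4) in Gli2_EKO, a log2 ratio of 1.77 (1.43 to 2.11). Both Matrix-like clusters were higher in Gli2_EKO, at 16.4 and 56.6 CPM and at 26.4 and 103 CPM. The IFE basal markers also summed higher in Matrix-like cells of Gli2_EKO, at 1053 CPM against 517 CPM in Control. Carried levels were computed from collagen counts and do not cover RNA from epidermal cells. The part of such RNA in the Matrix-like difference was not tested. Fibroblast-like cells had 115 and 60.2 CPM. The Gm20754/Lrrc7 cluster, with 14 and 4 cells, stood higher, with intervals of 344 to 598 CPM in Control and 438 to 999 CPM in Gli2_EKO. Over all keratinocytes, of which IFE basal-like cells were a larger share in Gli2_EKO, the level was 76.0 and 77.6 CPM.

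Sema3d, the third semaphorin, lies at chr5:12433124-12638929 on the plus strand, and Sema3a, Sema3c and Sema3d all sit on the same chromosome. IFE basal-like cells had 114 CPM (106 to 123) in Control and 47.7 CPM (43.3 to 52.5) in Gli2_EKO, a log2 ratio of -1.26 (-1.44 to -1.08). The 3 clusters were alike, at 125 and 49.4 CPM, 116 and 49.9 CPM, and 94.7 and 40.6 CPM. After thinning, 24.4% of Control and 9.05% of Gli2_EKO cells had a Sema3d UMI, and 0% of Immune-like cells in either library, which allows a share of up to 3.93% and 9.74% there. IFE suprabasal-like cells had 57.0 and 37.5 CPM, and Upper follicle-like cells 38.4 CPM (33.3 to 44.0) and 8.59 CPM (6.01 to 11.9). The Nlgn1/Adamts19 cluster kept 44.3 CPM (36.4 to 53.4) and 54.2 CPM (42.1 to 68.7), with overlapping intervals. All other keratinocyte classes were at or below 5.85 CPM in both libraries. Fibroblast-like cells had 60.2 CPM (55.0 to 65.7) and 72.4 CPM (65.5 to 79.9), and Dermal papilla-like cells 30.0 and 48.2 CPM. In Gli2_EKO the IFE basal-like level was thus below that of Fibroblast-like cells, and it overlapped with that of the Nlgn1/Adamts19 cluster. In Control, Sema3c and Sema3d were both highest among keratinocytes in IFE basal-like cells, and across the 15 keratinocyte clusters their log2 levels had a Pearson's r of 0.72. In single IFE basal-like cells thinned to 5000 UMIs, 23.6% of Control and 10.3% of Gli2_EKO cells had UMIs of both, against 24.1% and 8.90% if independent.

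**Figure D4:**
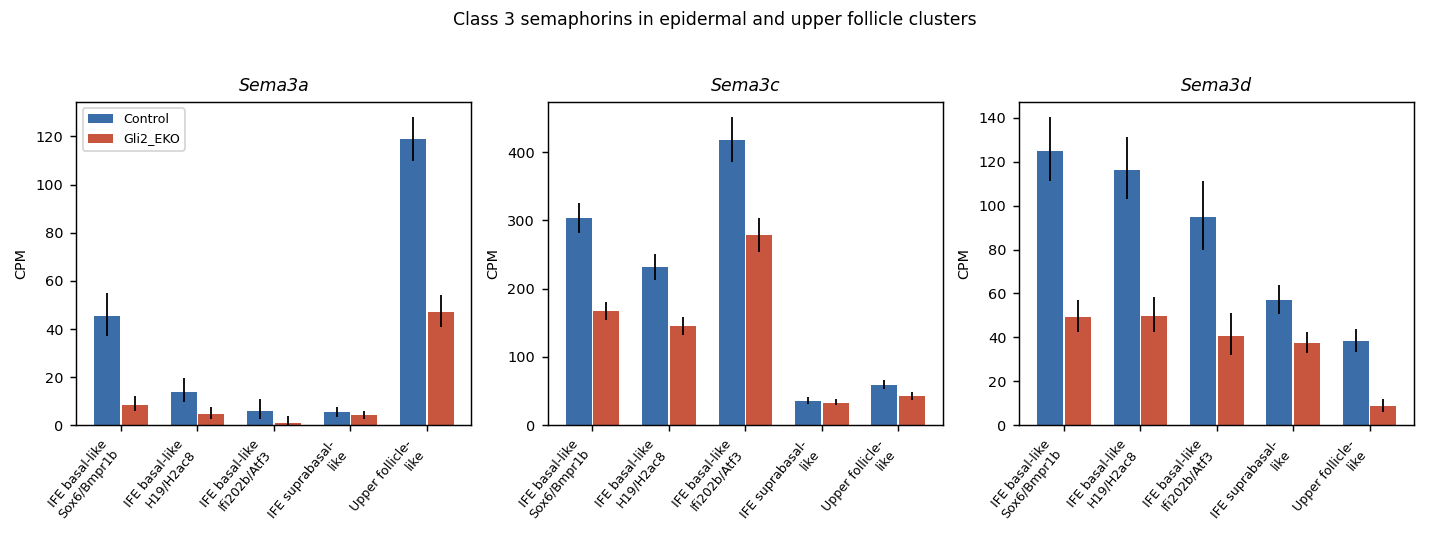
Bars give the CPM of Sema3a, Sema3c and Sema3d in the 3 IFE basal-like clusters, IFE suprabasal-like cells and Upper follicle-like cells of each library, with exact 95% Poisson intervals as lines; each panel has its own axis from 0. Sema3d was lower in Gli2_EKO in all 5 groups, and Sema3c in the 3 IFE basal-like clusters.

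Nrp1, a neuropilin that binds class 3 semaphorins and VEGF, lies at chr8:129085085-129231082 on the plus strand. It was mainly a gene of the dermal and migratory cells. Endothelial-like cells had 662 CPM (569 to 766) in Control and 83.1 CPM (33.4 to 171) in Gli2_EKO, from 23 and 8 cells, too few to say more than the values. Mural-like cells, which wrap around vessels, had 200.1 CPM (153 to 257) and 116 CPM (71.1 to 179.8). Fibroblast-like cells (135 and 117 CPM) and Melanocyte-like cells (134 and 111 CPM) overlapped with each other in both libraries, and Immune-like cells had 71.0 and 77.0 CPM. Dermal papilla-like cells were low, at 15.0 and 18.9 CPM. Among keratinocytes the Nlgn1/Adamts19 cluster had 54.7 CPM (45.9 to 64.7) and 75.7 CPM (61.3 to 92.6) and the S100a3/Krt35 cluster 60.0 CPM (50.3 to 71.0) and 39.5 CPM (25.8 to 57.9). Their intervals overlapped in Control and not in Gli2_EKO. Matrix-like cells had 27.2 and 18.5 CPM, and the other keratinocyte classes were at or below 14.3 CPM.

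Nrp2, the second neuropilin, lies at chr1:62742444-62857854 on the plus strand. In contrast to Nrp1 it was a gene of the hair-forming keratinocytes. Matrix-like cells had 399 CPM (385 to 414) in Control and 399 CPM (376 to 422) in Gli2_EKO, a log2 ratio of 0.00 (-0.10 to 0.10). IRS-like cells followed at 340.0 CPM (319 to 362) and 327 CPM (299 to 358), and the S100a3/Krt35 cluster at 259 CPM (239 to 281) and 316 CPM (274 to 362). Those 3 classes were apart in Control, while IRS-like cells and the S100a3/Krt35 cluster overlapped in Gli2_EKO. Sebocyte-like cells (156 and 105 CPM), the Tagln/Acta2 cluster (137 and 121 CPM) and the Nlgn1/Adamts19 cluster (111 and 67.0 CPM) lay between. Upper follicle-like cells had 98.1 CPM (89.8 to 107) and 55.1 CPM (48.2 to 62.7), and Lower ORS-like cells 47.0 and 27.0 CPM. The IFE basal-like level was the lowest among keratinocytes, at 14.5 and 9.72 CPM. Summed over all other cells Nrp2 had 118 CPM in Control and 178 CPM in Gli2_EKO, and the classes differed in direction. Dermal papilla-like cells had 175 CPM (155 to 197) and 388 CPM (351 to 427), a log2 ratio of 1.15 (0.93 to 1.37). Both Dermal papilla-like clusters were higher, at 322 and 563 CPM in the cluster led by Prokr2 and 87.5 and 127 CPM in the cluster led by Dcc. The Prokr2 cluster held 82 of 194 Control and 97 of 156 Gli2_EKO cells of the class. The class ratio thus mixes level and makeup, and a weighted ratio was not computed for Nrp2 there. Fibroblast-like cells had 126 and 168 CPM. Endothelial-like cells had 261 and 1128 CPM from 23 and 8 cells. Immune-like cells (56.0 and 17.6 CPM), Melanocyte-like cells (11.6 and 2.44 CPM) and Schwann-like cells (227 and 151 CPM, from 27 and 3 cells) were lower in Gli2_EKO. Robo1 and Nrp2 were found together in Matrix-like cells. After thinning to 5000 UMIs 64.4% of Control and 56.1% of Gli2_EKO cells had UMIs of both, against 61.3% and 53.8% if independent.

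The 250 bases before the RefSeq transcription start of each gene were read on GRCm38.p6 (a different build from that of the counts) and 9 of 9 genes matched, with 11 windows in all. A 9-base Gli motif, TGGGTGGTC or its reverse complement GACCACCCA, was in 0 of the 11 windows and in 0.225% of 32851 windows of the same length over all genes. The LEF/TCF motif CTTTGAT or its reverse complement ATCAAAG was in 3.21% of all windows and in 1 of the 11, that of Nrp2, where it lay 146 to 140 bases before the start on the gene's strand. Motif matches are descriptions and show no binding, and no match says only that these letters are not in this window. Windows for Nrp2, Sema3c and Sema3d are printed because Nrp2 holds the match and because both semaphorins were highest in IFE basal-like cells among the keratinocyte classes of the Control library but differed in base composition, with 78.4% GC and 39 CpG dinucleotides for Sema3c and 46.8% GC and 4 for Sema3d, against medians of 52.4% and 6 over all windows. Capitals mark the LEF/TCF match.
Nrp2 (chr1:62703067-62703316, plus strand): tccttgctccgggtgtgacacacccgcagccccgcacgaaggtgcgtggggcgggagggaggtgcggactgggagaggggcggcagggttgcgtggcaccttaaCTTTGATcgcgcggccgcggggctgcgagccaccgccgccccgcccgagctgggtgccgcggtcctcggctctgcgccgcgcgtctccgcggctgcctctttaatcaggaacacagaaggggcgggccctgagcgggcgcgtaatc
Sema3c (chr5:17574566-17574815, plus strand): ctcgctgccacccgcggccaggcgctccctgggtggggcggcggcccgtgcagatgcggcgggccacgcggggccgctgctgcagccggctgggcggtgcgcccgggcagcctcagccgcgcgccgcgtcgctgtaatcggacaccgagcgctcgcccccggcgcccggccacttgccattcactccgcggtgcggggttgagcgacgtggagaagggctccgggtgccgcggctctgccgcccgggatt
Sema3d (chr5:12382916-12383165, plus strand): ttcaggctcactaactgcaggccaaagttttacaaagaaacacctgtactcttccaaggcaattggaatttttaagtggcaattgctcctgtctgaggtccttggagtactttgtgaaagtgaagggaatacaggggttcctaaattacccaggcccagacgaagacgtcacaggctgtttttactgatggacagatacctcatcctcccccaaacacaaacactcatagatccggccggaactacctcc
The Nrp2 window had 72.4% GC and 32 CpG dinucleotides. The Slit3 window had 78.8% GC and the Sema3a window 40.8% GC and 2 CpG dinucleotides.

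Over all keratinocytes 5 of the 9 genes were at least 1.5-fold lower in Gli2_EKO, where 9.92% of the 15632 genes with at least 50 UMIs were. They were Slit3 (172 and 62.2 CPM, log2 ratio -1.46), Sema3a (22.4 and 10.5 CPM, -1.10), Slit2 (6.70 and 3.83 CPM, -0.81), Nrp2 (142 and 80.9 CPM, -0.81) and Nrp1 (13.9 and 8.71 CPM, -0.67). Of the 9 genes 0 were at least 1.5-fold higher, where 4.27% of all counted genes were. Robo1 stood at 259 and 175 CPM (-0.56), Sema3d at 30.7 and 23.8 CPM (-0.37), Robo2 at 152 and 153 CPM (0.01) and Sema3c at 76.0 and 77.6 CPM (0.03). The median log2 ratio was -0.67 over the 9 genes and -0.14 over all counted genes. The members and the comparison were chosen with such values known, so nothing particular to the list is read from these counts.

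Several of these ratios moved when the makeup of the libraries was held fixed. With the Gli2_EKO classes weighted to their Control shares, the log2 ratio over keratinocytes was -0.09 for Nrp2, -0.23 for Nrp1 and -0.58 for Slit2, so that these 3 were no longer 1.5-fold lower. Sema3a, at -1.07, and Slit3, at -0.92, were still past 1.5-fold, and Sema3d, at -1.02, came to be. Robo1 gave -0.25, Sema3c -0.32 and Robo2 0.24.

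**Figure D5:**
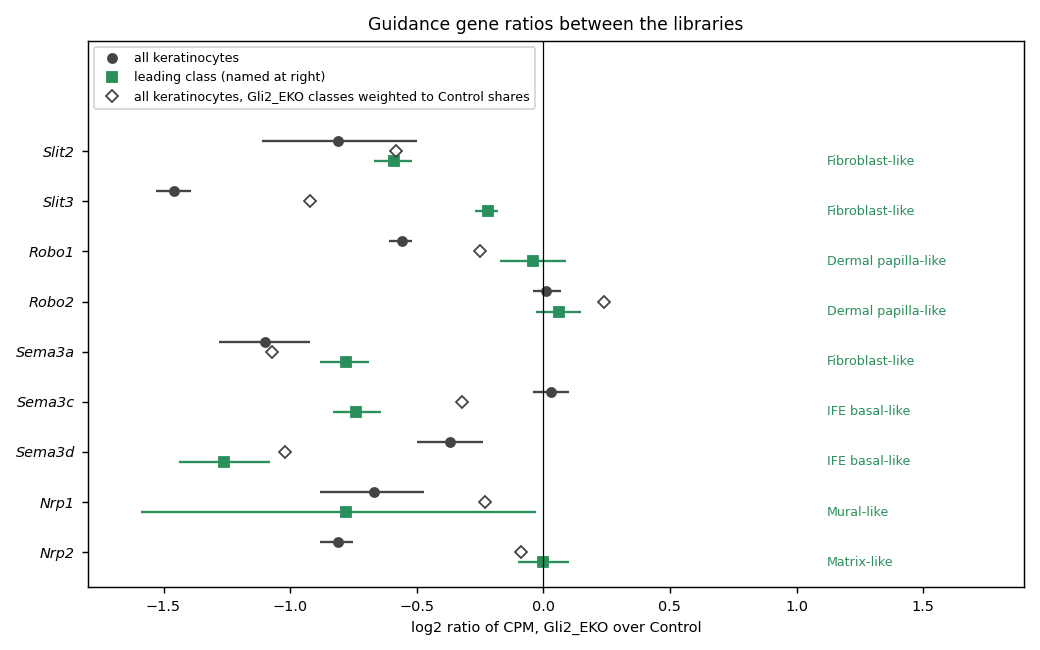
Log2 ratios of CPM, Gli2_EKO over Control, for each gene: filled circles for all keratinocytes, open diamonds for the same with Gli2_EKO classes weighted to their Control shares, and squares for the class with the highest level of the gene, both libraries pooled, among named classes with at least 20 cells in each library. Lines are exact 95% intervals for counting error. The Nrp2 circle lies at -0.81 while its diamond and square lie near 0, and for Sema3d the diamond at -1.02 lies near the square at -1.26.

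Within classes the genes that differed were not the same everywhere. In IFE basal-like cells 5 of 9 were at least 1.5-fold lower (Slit2, Slit3, Sema3a, Sema3c and Sema3d), where 4.92% of all counted genes were, with Slit2 and Slit3 near their carried levels in Gli2_EKO. In Upper follicle-like cells 4 of the 8 counted were lower (Slit3, Sema3a, Sema3d and Nrp2), where 8.58% of genes were. In Lower ORS-like cells 6 of 9 were lower (Slit2, Slit3, Robo1, Sema3a, Sema3d and Nrp2), where 5.32% were. The log2 interval of Sema3a there reached past 0 (-1.69 to 0.27). In the Tagln/Acta2 cluster 2 of 5 were lower (Slit3 and Robo1), where 8.94% were. In Matrix-like cells only Slit3 of 6 was lower, where 8.04% were, and Robo2 and Sema3c were higher, where 4.59% were. In IRS-like cells 0 of 4 were lower, where 13.2% were, and 1 of 4, Robo2, was higher, where 4.03% were. In Fibroblast-like cells Slit2, Sema3a and Sema3c were lower, 3 of 9, where 4.87% were, and Slit2 was no longer past 1.5-fold, at -0.44, with the Fibroblast-like clusters weighted to their Control shares. In Dermal papilla-like cells 0 of 6 were lower, where 5.95% were, and Sema3d and Nrp2 were higher, where 5.45% were.

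Other guidance genes were taken from a list of 67, all of them found in the files, of which 43 had at least 100 UMIs in keratinocytes. Over all keratinocytes 13 of the 43 were at least 1.5-fold lower in Gli2_EKO, where 8.32% of all 13727 genes with that many UMIs were, and 0 were at least 1.5-fold higher, where 3.46% were. Of the Robo pathway, the Slit-Robo GTPase activating proteins Srgap1 (119 and 67.1 CPM) and Srgap3 (9.61 and 4.28 CPM) were lower. Among class 3 semaphorins Sema3e was lower, at 185 and 109 CPM, with its peak in the Tagln/Acta2 cluster at 866 and 649 CPM. Of the other semaphorins, the transmembrane Sema5a (137 and 75.7 CPM) and the membrane-anchored Sema7a (2.26 and 1.47 CPM) were lower.

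Of the 6 plexins counted 0 passed 1.5-fold, a number too small to set against those shares. Of all 9 plexins listed, the highest class levels were those of Plxnc1, the receptor of Sema7a, at 359.7 and 309 CPM in Melanocyte-like cells, and Plxna2, a partner of neuropilins, at 334 and 282 CPM in IRS-like cells, where Nrp2 was high as well. Plxna4, which also pairs with neuropilins, followed at 98.4 and 102 CPM in Fibroblast-like cells. Of the VEGF family, Vegfc had 4.51 and 2.60 CPM in keratinocytes. Of the netrins, laminin-like guidance cues, and their receptors, Ntn1 (11.1 and 5.27 CPM), Ntn4 (29.0 and 17.6 CPM), Ntng1 (2.08 and 1.20 CPM) and the netrin receptor Unc5b (32.9 and 17.2 CPM) were lower. Among proteins that act downstream or at the membrane of the responding cell, Dpysl3 (18 and 11.6 CPM), Mical2 (129 and 84.7 CPM) and Nrcam (4.99 and 0.928 CPM) were lower.

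For each gene, the genes with the most similar levels were sought among 13533 others, by Pearson's r of log2(CPM + 10) over 16 classes in both libraries (32 points that share libraries and depth). For Slit2 they were Foxd1 (0.96), Arhgap20 (0.95) and Svep1 (0.95). For Slit3 they were Gm12122 (0.90), which overlaps Slit3 in the annotation, Adamts5 (0.88) and the laminin chain Lamb1 (0.88). Robo1 was most like Prnp (0.90), the growth factor Bmp4 (0.84) and Fzd10os (0.83). Robo2 was most like St8sia2 (0.87), Gm37606 (0.84) and C130023A14Rik (0.84), the last pair being on its own chromosome at 2114 and 2199 kb. Sema3a was most like Kazald1 (0.87), Sar1a (0.80) and Tmem150c (0.78). Sema3c had weaker matches in Adk (0.79), Efemp1 (0.79) and Slc38a4 (0.75). Sema3d had Col7a1 (0.92), the anchoring fibril collagen of the basement membrane, Pcdh9 (0.82) and Sdk2 (0.81). Nrp1 had an unnamed gene 0.342 kb from its end (0.89), Mical1 (0.85) and Klhl13 (0.84). Nrp2 had Gm37121 (0.87), which overlaps it, and Frat1 (0.80). UMIs of the overlapping or adjacent genes and of the guidance genes cannot be told apart with certainty. No protein-coding gene overlaps any of the 9.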

How the data were processed

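Single-cell 3′ RNA libraries of P2 epidermal preparations, 1 Control and 1 Gli2_EKO, were deposited as raw UMI count matrices that the authors made with Cell Ranger 9.0.1 on GRCm39. Whether intronic reads were counted was not stated, and spans of over 100 kb make this matter for the genes described. The study's limits were applied to each cell (more than 1000 genes, fewer than 8000 genes, mitochondrial share below 15%). Doublets were scored with Scrublet (scanpy 1.11.5) and the top 8% of each library removed, because the automatic threshold marked 260 Control and 5 Gli2_EKO cells. Cells were clustered with Seurat 5.3.0 (R 4.3.3; 2000 variable genes without the guidance genes, 20 components, Harmony-style integration, resolution 0.5) and named from marker lists. UMIs were summed per class and library. Python 3.11.15, scipy 1.17.1 and numpy 2.4.6 gave exact 95% intervals. Those of log2 ratios were run on simulated independent Poisson counts, the model they assume. That run checks the code and cannot check spread between cells or libraries. With 1 library per genotype no p-value was computed, and UMIs share cells, so intervals cover counting error only. Kept cells had a median of 11828 UMIs in Control and 11936 in Gli2_EKO. Ratios of at least 1.5-fold were counted among genes with at least 50 UMIs. The genes named are the 9 listed, in each family the other guidance genes past 1.5-fold with at least 100 UMIs or, where none was, the 3 with the highest class level, and the 3 genes most alike in level to each member, of which 1 is not reported here. The members and gene lists were chosen with earlier results of these data known. Alternatives were doublets kept, a higher gene limit, other clustering, weighted makeup and other UMI minimums.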

Additional observations from a re-analysis of the deposited data

Results flagged for a closer look

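For 3 genes the ratio over all keratinocytes and the ratio over all other cells lay on opposite sides of 0 with neither interval reaching 0, which is what drew attention to them. The log2 ratio of Gli2_EKO over Control for Robo1 was -0.56 (-0.61 to -0.52) in keratinocytes and 0.16 (0.08 to 0.23) in other cells. Sema3d stood at -0.37 (-0.50 to -0.24) and 0.34 (0.16 to 0.51). Nrp2 stood at -0.81 (-0.88 to -0.75) and 0.60 (0.50 to 0.70). These ratios mix level and makeup. With Gli2_EKO classes weighted to Control shares, the keratinocyte ratio was -0.25 for Robo1, -1.02 for Sema3d and -0.09 for Nrp2. The difference between the cell groups was not tested, since each genotype has 1 library.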

How the results depend on the processing

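No paired analysis was possible because each genotype has 1 library and no result comes from a test. Of 99 recomputed main values 85 moved by less than their counting interval, and no ratio past 1.5-fold changed sign. Those 85 include the ratios over all keratinocytes without integration and at clustering resolution 1. For every gene these equalled the main value, since a sum over all keratinocytes does not depend on the clusters within them. They are therefore no check on those ratios. Weighting the classes could change them, and it moved 7 and left 2 within their counting interval. With Gli2_EKO classes weighted to Control shares, the log2 ratio over keratinocytes became -0.92 for Slit3, -0.25 for Robo1, 0.24 for Robo2, -0.32 for Sema3c, -1.02 for Sema3d, -0.23 for Nrp1 and -0.09 for Nrp2. Nrp1, Nrp2 and Slit2 (-0.58) were then under 1.5-fold, and Sema3d was past it. With each cell classed by its own marker score it was -0.28 for Slit3 in Fibroblast-like, -0.61 for Sema3c in IFE basal-like and 0.10 for Nrp2 in Matrix-like cells. Without doublet removal Sema3a in Fibroblast-like cells gave -0.88, Robo1 over keratinocytes passed 1.5-fold at -0.59 and Nrp1 in Mural-like cells was under it at -0.52. With clusters of a class weighted to Control shares, an alternative chosen after seeing the data, Slit2 and Sema3a in Fibroblast-like cells gave -0.44, under 1.5-fold, and -0.59, and Robo2 in Dermal papilla-like cells -0.16. Leaving out the small Matrix-like cluster was also chosen after seeing the data. At a minimum of 200 UMIs, 5 of 18 counts of members moved by over 1.5 times. In IFE basal-like cells 2 of 4 members were then lower, where 2.48% of genes were. In Lower ORS-like cells 3 of 5 were lower, where 2.34% were, and in the Tagln/Acta2 cluster 1 of 3, where 4.05% were. In IRS-like cells 0 of 3 were higher, where 2.24% were, and in Dermal papilla-like cells 1 of 5, where 3.29% were. Thinning to 5000 UMIs moved 17 of 18 shares of cells with a UMI. With 1 library per genotype, differences between animals, pools or preparations and the genotype cannot be told apart.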
